A study of Homo sapiens with 12 samples.

Results

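The difference between CD44 KO and CD44 WT cells shared by 2 triple negative breast cancer lines was measured with 12 of the 12 libraries of the series. One additive model, cell line plus CD44 status, gave each gene a single log2 fold change, CD44 KO over CD44 WT, fitted jointly to Hs578T and MDA-MB-231. The line with more counts of a gene weighs more in this fit, so the value need not be the mean of both lines' changes. This common effect can reach changes that are too small for the test of 1 line, provided that both lines move alike. Genes of chromosome 2 that start below position 26600000 (GRCh38) were set apart and are described last.

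CD44 is a cell surface glycoprotein whose best known ligand is hyaluronan, an unsulfated glycosaminoglycan of the extracellular matrix. Some forms of CD44 also carry heparan sulfate or chondroitin sulfate chains, and its cytoplasmic tail binds ezrin, radixin, moesin and ankyrin. In breast carcinoma it is widely used as a marker of mesenchymal and stem-like cells, and hyaluronan binding to CD44 has been linked to adhesion, migration and inflammatory signaling.

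Hs578T and MDA-MB-231 are established human lines of mesenchymal character that lack hormone receptors and HER2 amplification. Both arms of each line carried a doxycycline-inducible Cas9 from a lentivirus under puromycin selection. CD44 KO plates received guide RNAs to exons 1 and 5 of CD44 and CD44 WT plates the transfection reagent alone, so that the control arm was not exposed to a guide. Live CD29+/CD44- cells and live CD29+/CD44+ cells were then sorted, expanded and serum-starved before RNA was taken. Each arm is therefore a sorted population and not a clone. Each of the 4 groups had 3 libraries, and since nothing says that these came from separate cultures, p-values measure only the spread between these libraries. In bulk RNA, fewer cells with a transcript and less of it in each cell cannot be told apart.

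The 12 libraries held 10257586 to 19725543 counted fragments, and mitochondrial genes took 0.861% to 2.53% of them without separating the arms. CD44 itself, on chromosome 11 from 35138870 to 35232402, followed the labels. In Hs578T the 3 WT libraries held 527, 494 and 501 CPM, counts scaled to the library total times its TMM factor, and the 3 KO libraries 28.3, 28.6 and 24.9. In MDA-MB-231 the WT libraries held 362, 360 and 363 CPM and the KO libraries 40.3, 32.4 and 30.0. The groups lay far apart in both lines, with a common log2 fold change of -3.81 ± 0.14 (SE; edgeR quasi-likelihood test, adjusted p = 1.5e-09). VIM was at 3730 CPM or more in every library, whereas PGR had no count in any of the 12 and ESR1 at 1.15 CPM or less. Not all markers behaved so. Of the mesenchymal markers, SPARC was at 0.52 and 0.97 CPM and TGFBI at 5.48 and 18.9 CPM in MDA-MB-231 WT and KO. Of the luminal and HER2 markers, XBP1 was at 72.67 CPM or more and ERBB2 at 57.4 CPM or more in every library. AGR2 and FOXA1 reached means of 16.95 and 8.33 CPM in MDA-MB-231. The summed epithelial markers EPCAM, CDH1, KRT8, KRT18, KRT19 and CLDN4, mostly KRT8 and KRT18, were lower after CD44 loss in both lines. They summed to 971 to 1005 CPM in Hs578T WT against 879 to 937 in KO, and to 1217 to 1521 CPM in MDA-MB-231 WT against 977 to 1130 in KO, although by edgeR 0 of the 5 tested passed the threshold and 4 were lower at an unadjusted p under 0.05 (DESeq2 called 0). The 4 endothelial markers summed to 11.9 to 14.3 CPM in Hs578T WT and 16.46 to 16.96 in KO, and to 6.17 to 9.71 CPM in MDA-MB-231 WT and 14.1 to 15.6 in KO. Leukocyte markers summed to 5.29 CPM or less in every library, and PTPRC made up most of this in Hs578T KO.

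The common test called 488 of 15836 tested genes at an adjusted p of at most 0.01, or 3.08% of the genes tested. Of these, 265 were lower and 223 higher in CD44 KO, which is 1.67% and 1.41%. The arms also differed in guide transfection and in the sort, which cannot be told apart from CD44 loss here. As each line's own contrast in 1 fit of all 12 libraries with a mean per group, Hs578T had 1189 calls (7.51%), and MDA-MB-231 had 731 (4.62%). These contrasts are the single-line tests used below. With each line fitted alone on its own libraries the counts were 1525 and 315. The common count was 290 to 322 when Hs578T CD44 WT replicate 1 or 2, or any of the 3 Hs578T CD44 KO replicates, was left out, and 365 to 510 without each of the others. The same 5 libraries took the Hs578T count to between 605 and 705, and MDA-MB-231 CD44 WT replicate 3 or any of its 3 KO replicates took the MDA-MB-231 count to between 355 and 459. With the 2 line differences as the only units, limma called 0 genes, 600 having an unadjusted p under 0.05, so the calls describe these libraries and not cell lines at large.

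Many of the calls do not describe both lines. A mean of at least 1 CPM in each line was reached by 12140 tested genes and by 217 of the called ones (1.79%). The other 271 called genes had a mean under 1 CPM in a line, and 144 of them had fitted changes of opposite sign in the lines. TWIST1, a transcription factor of mesenchymal cells, shows what such a call is. It rose from 1.47 to 25.3 CPM in Hs578T while no fragment of it was counted in MDA-MB-231, yet it had a common log2 fold change of 4.05. EPB41L3, a membrane linker of the protein 4.1 family, fell from 118 to 3.86 CPM in MDA-MB-231 and did not exceed a mean of 0.05 CPM in Hs578T. All 217 genes measured in both lines had fitted changes of the same sign in both. This agreement was in part fixed by the choice of genes, since a difference between the lines widens the spread in the additive test. Outside the end of chromosome 2, 459 of 15736 tested genes were called (2.92%), 236 of them lower (1.5%) and 223 higher (1.42%). Of the 459, 191 were measured in both lines, 98 lower and 93 higher, and in 169 of the 191 all 3 KO libraries lay on the same side of all 3 WT libraries in both lines. Among all genes tested that separation was seen in 5.35%. The 191 genes were called on the same libraries, so their separation is no separate evidence.

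**Figure D1:**
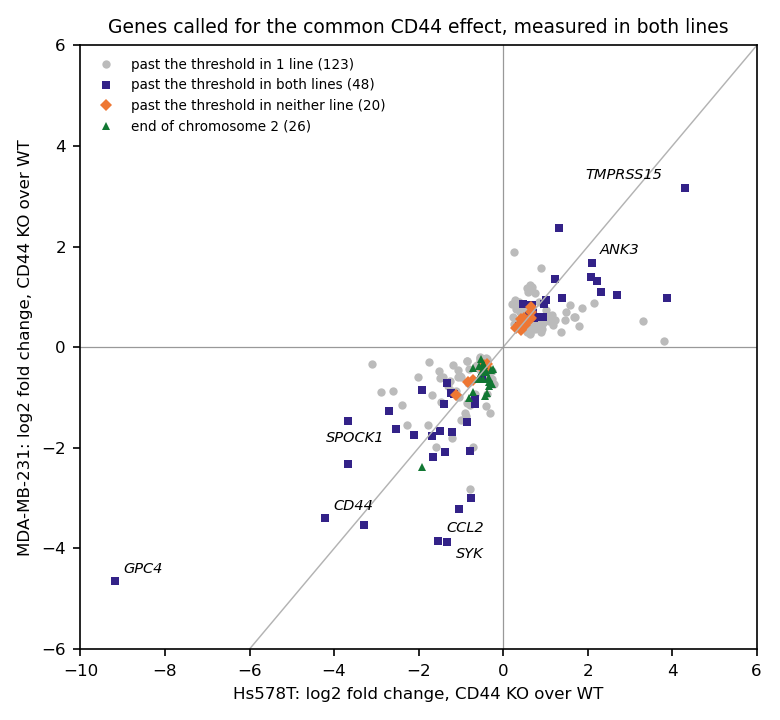
Fitted log2 fold change (CD44 KO over WT) in Hs578T on the x axis and in MDA-MB-231 on the y axis for the 217 called genes with at least 1 CPM in both lines; symbols mark 48 genes past the threshold in both lines, 123 in 1 line, 20 in neither line and 26 in the end of chromosome 2. All points lie in the lower left or upper right quadrant, and the genes called in neither line sit close to the origin and to the diagonal. The choice of genes by the additive test in part fixes this.

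By the tests of single lines, the 191 genes comprised 48 called in both lines, 82 in Hs578T only, 41 in MDA-MB-231 only and 20 in neither. Conversely, 67 genes were called with the same sign in both lines, and 63 of them were called for the common effect. Another 34 genes were called in both lines with opposite signs, and 0 of these passed the common test in edgeR, with 0 at an unadjusted p under 0.05 and 0 by DESeq2. Opposite changes cancel in the additive test, so this outcome follows from its design. The weakest measured calls were TIE1, at an adjusted p of 0.0098, and TIMM10B, at 0.00997, while NMT2 at 0.0101 and SBF2-AS1 at 0.0102 stood just beyond the threshold in the edgeR test.

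The additive test was meant to find concordant genes that neither line's own contrast called. It added 24 such genes outside the end of chromosome 2, 11 lower and 13 higher, and 3 inside it, all lower. Their changes were modest. Over the 27 genes the size of the common log2 fold change had a median of 0.49, against 1.37 for the 63 genes called in both lines. Small changes are less often called in a single line, so the classes in part fix this difference. In the edgeR tests of single lines their adjusted p ran from 0.0101 to 0.11, above the threshold of 0.01. It was at most 0.05 in both lines for 22 of the 27. None passed the test of a difference between the lines, the smallest adjusted p of that difference being 0.42. In 26 of the 27 the KO libraries did not overlap the WT libraries in either line. Both results follow in part from how the genes were chosen on these same libraries, and are no separate evidence that the lines move alike. The calls are fragile at the level of single genes. Between 4 and 21 of the 27 remained called when 1 library was left out, the fewest without Hs578T CD44 KO replicate 2. DESeq2 called all 27 for the common effect. The class counted anew held 146 genes by DESeq2. It held 11 genes when more than 1 CPM was required in at least 2 libraries of each line.

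Of this class, 7 genes that fell met the rule for naming. TGFBR3, or betaglycan, is a transmembrane proteoglycan with glycosaminoglycan chains that presents TGF-beta to its signaling receptors. Hs578T WT libraries held 25.6, 24.8 and 23.2 CPM of it and the KO libraries 14.3, 13.7 and 17.4. MDA-MB-231 WT libraries held 33.3, 50.0 and 57.3 CPM and the KO libraries 29.7, 28.8 and 31.5. Within each line every KO library was below every WT library, although MDA-MB-231 WT replicate 1 came within 2 CPM of a KO library. The common log2 fold change was -0.67 ± 0.12 (adjusted p = 0.0027 by edgeR), and the gene stayed called in each of the 12 fits without 1 library.

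IDS, the lysosomal iduronate-2-sulfatase that takes part in the breakdown of heparan and dermatan sulfate, was lower by a similar step in both lines. Its level was 119, 105 and 85.7 CPM in Hs578T WT and 76.5, 77.1 and 73.4 in KO. In MDA-MB-231 it was 155, 180 and 184 CPM in WT and 135, 133 and 137 in KO. The KO libraries were tightly grouped and the WT libraries more spread, with a common change of -0.40 ± 0.08 (edgeR adjusted p = 0.0054). The call was lost in 10 of the 12 fits without 1 library, with an adjusted p of up to 0.027, and held without Hs578T WT replicate 3 or MDA-MB-231 WT replicate 1.

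The other genes that fell were SLC35F6 (-0.40 ± 0.07), a membrane protein of a solute carrier family, ATP6V0E2 (-0.45 ± 0.08), a subunit of the vacuolar proton pump, and ARHGAP45 (-0.75 ± 0.14), together with CCDC34 (-0.42 ± 0.08) and DPY30 (-0.36 ± 0.07), a core subunit of histone H3 lysine methyltransferase complexes. ARHGAP45 fell from 22.6 ± 7.3 to 12.8 ± 1.3 CPM in Hs578T cells and from 76.9 ± 12.8 to 47.5 ± 6.7 in MDA-MB-231 (SD, n = 3). In Hs578T its lowest WT library, at 14.3 CPM, was next to its highest KO library, at 14.2. SLC35F6 stayed called in each fit without 1 library, whereas the call was lost in 4 of these 12 fits for ATP6V0E2, in 8 for ARHGAP45, in 9 for CCDC34 and in 10 for DPY30, with an adjusted p of up to 0.025 for the last.

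Several of these genes lie among neighbours whose values had the same sign. The 50 tested genes nearest to SLC35F6, 25 on each side, had a median common log2 fold change of -0.24, with -0.38 in Hs578T, the value of SLC35F6 itself there, and -0.12 in MDA-MB-231. The neighbours of IDS stood at -0.32 in Hs578T, against -0.45 for IDS, and at -0.03 in MDA-MB-231. Those nearest to ATP6V0E2 had a median of -0.26 with similar values in both lines, while TGFBR3 had neighbours at 0.00. CCDC34 lies on chromosome 11 telomeric of CD44, where its neighbours had a median of 0.08 in Hs578T and -0.54 in MDA-MB-231. DPY30, also on chromosome 2, had neighbours at -0.37 in Hs578T and 0.00 in MDA-MB-231. Over the 24 genes, the neighbours' median was at least 0.2 in the gene's own direction for 6 and at least 50% of its change for 4. What part the surrounding shift had in these calls was not tested.

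Among the 8 named genes that rose in this class, SNAI2 and NR2F2 encode transcription regulators. SNAI2, or Slug, is a zinc finger repressor of epithelial genes. It was at 39.4, 35.0 and 47.3 CPM in Hs578T WT and at 58.0, 53.5 and 60.1 in KO. In MDA-MB-231 it was at 13.3, 19.0 and 15.2 CPM in WT and at 27.8, 21.0 and 22.0 in KO. The arms did not overlap in either line, and the common log2 fold change was 0.53 ± 0.11 (edgeR adjusted p = 0.0068). The call was lost in 9 of the 12 fits without 1 library, that is in all but those without Hs578T WT replicate 3, the MDA-MB-231 WT library without a number or MDA-MB-231 KO replicate 2, with an adjusted p of up to 0.021. The lower summed epithelial markers given above moved with it, and their part in the result was not tested.

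NR2F2, an orphan nuclear receptor also called COUP-TFII, was at 17.6, 18.3 and 22.8 CPM in Hs578T WT and at 26.5, 28.2 and 27.0 in KO. Its level in MDA-MB-231 was 152, 174 and 156 CPM in WT and 274, 231 and 176 in KO, where the lowest KO library was only just above the highest WT library. The common change was 0.49 ± 0.10 (edgeR adjusted p = 0.0075), a call lost in 9 of the 12 fits without 1 library. NR2F2-AS1, an RNA on the other strand beside it, was in the same class at 1.14, but at 2.38 CPM or less in every group mean and with libraries that overlapped. The genes around NR2F2 had a median of 0.21.

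Chromatin and ubiquitin proteins made up 3 of the remaining genes. SMARCA1, an ATPase of ISWI chromatin remodelling complexes, rose from 16.2 ± 2.7 to 21.6 ± 1.8 CPM in Hs578T cells and from 85.9 ± 15.5 to 126.6 ± 12.7 in MDA-MB-231 (SD, n = 3). UBE2L6, the conjugating enzyme for ISG15, rose by 0.49 ± 0.10, and CUEDC2, a ubiquitin-binding protein, by 0.40 ± 0.07 on the log2 scale. TSPAN13, a tetraspanin, rose by 0.73 ± 0.14 from low levels of 6.23 ± 0.98 CPM in Hs578T and 6.46 ± 0.72 CPM in MDA-MB-231. The call was lost in 4 of the 12 fits without 1 library for CUEDC2, in 8 for TSPAN13, in 9 for UBE2L6 and in 10 for SMARCA1.

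The other pair of genes that rose, GLCE and CHST11, are enzymes of glycosaminoglycan synthesis. GLCE is the epimerase that turns glucuronic into iduronic acid in heparan sulfate, and CHST11 is a sulfotransferase of chondroitin chains. For GLCE, the Hs578T libraries held 50.6, 50.0 and 55.4 CPM in WT and 69.2, 70.5 and 68.3 in KO. In MDA-MB-231 they held 50.9, 68.0 and 62.9 CPM in WT and 78.5, 75.1 and 77.5 in KO. CHST11 was at 17.8, 22.2 and 25.7 CPM in Hs578T WT and at 30.5, 27.1 and 27.9 in KO. It was more abundant in MDA-MB-231, at 100, 115 and 111 CPM in WT and 145, 150 and 150 in KO. In each line the KO libraries of both genes were the higher ones without overlap. The common changes were 0.38 ± 0.07 for GLCE (adjusted p = 0.0045) and 0.42 ± 0.08 for CHST11 (adjusted p = 0.0055), both by edgeR, and these calls were lost in 6 and 9 of the 12 fits without 1 library. The 50 genes nearest to GLCE had a median of 0.05 in Hs578T and 0.19 in MDA-MB-231, against 0.42 and 0.35 for GLCE. Those nearest to CHST11 had 0.18 and -0.02, against 0.38 and 0.45 for CHST11. What part these surroundings had was not tested.

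**Figure D2:**
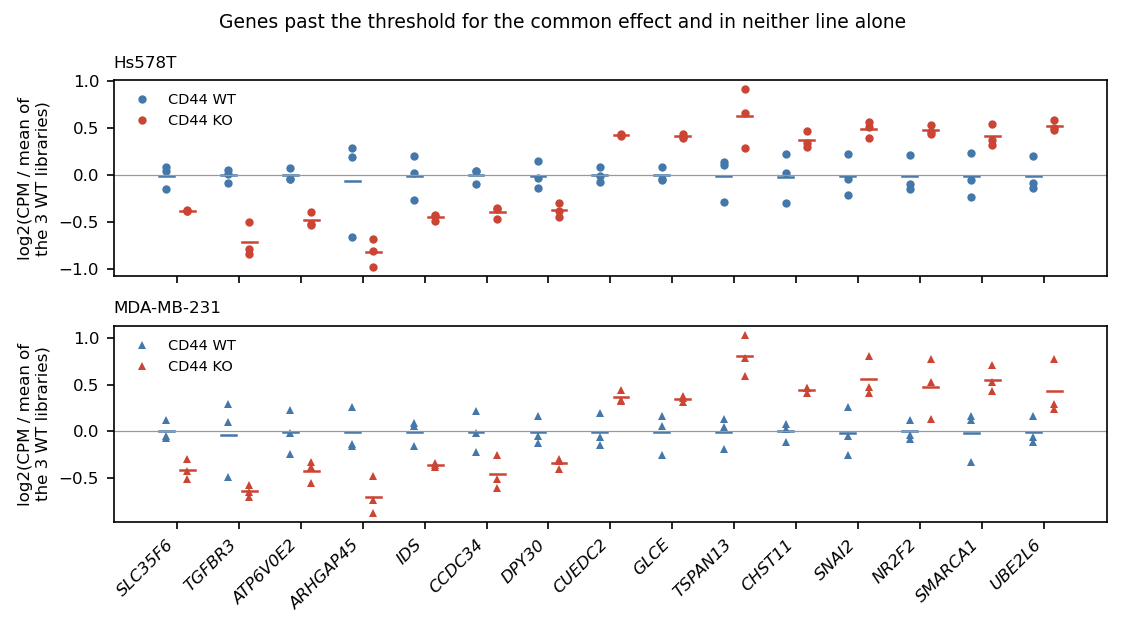
Each library's log2 ratio to the mean CPM of the 3 WT libraries of its line, for the 15 named genes called for the common effect and in neither line (blue, CD44 WT; red, CD44 KO; short bars, means of 3 libraries). The 7 genes on the left sit below the WT libraries in both panels and the 8 on the right above them, with common log2 fold changes from -0.75 to 0.73.

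The genes named next were called in 1 or both lines and were picked by the size of their changes. Their larger common changes follow from that choice. GPC4 encodes glypican-4, a heparan sulfate proteoglycan tethered to the membrane by a lipid anchor. It was at 32.7, 17.7 and 9.48 CPM in Hs578T WT, while the KO libraries held 0, 0 and 0.085. In MDA-MB-231 the WT libraries held 13.1, 11.3 and 10.9 CPM and the KO libraries 0.339, 0.636 and 0.296. The KO libraries of Hs578T thus had a single fragment against 798 in WT, a ratio of 840 with an exact 95% counting interval from 150.3 to 33217. This interval covers the counting of pooled fragments and leaves out the spread between libraries. The fitted common log2 fold change of GPC4, -5.93 ± 0.51, depends on the prior count in Hs578T (edgeR adjusted p = 1.2e-05). The 50 neighbouring genes on the X chromosome had a median of -0.21.

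SPOCK1, testican-1, is a secreted proteoglycan of the matrix. Hs578T WT libraries spread from 81.0 through 49.5 to 25.2 CPM, and the KO libraries held 16.3, 10.1 and 9.72. MDA-MB-231 WT libraries held 15.3, 33.4 and 32.7 CPM and the KO libraries 7.20, 7.89 and 9.18. Despite the spread of the WT libraries the arms did not overlap, and the common change was -1.94 ± 0.27 (edgeR adjusted p = 0.00056).

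CDH11, an adhesion molecule of mesenchymal cells known as OB-cadherin, was at 202, 159 and 94.3 CPM in Hs578T WT and at 48.9, 58.6 and 67.4 in KO. In MDA-MB-231, where it is less abundant, it was at 15.1, 17.9 and 19.5 CPM in WT and at 3.81, 3.60 and 5.23 in KO. The common change was -1.64 ± 0.19 (edgeR adjusted p = 0.00013).

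SYK, a tyrosine kinase best known from immune receptors, had the smallest p of a line difference among the named genes. It was at 21.2, 24.2 and 33.9 CPM in Hs578T WT and 10.3, 10.2 and 11.3 in KO. In MDA-MB-231 it was at 19.3, 15.1 and 15.2 CPM in WT and 1.35, 1.06 and 0.988 in KO. The common change of -2.27 ± 0.35 (edgeR adjusted p = 0.0011) lies between -1.32 ± 0.17 in Hs578T and -3.86 ± 0.23 in MDA-MB-231, and these differed (adjusted p of the difference 6.2e-05).

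ANK3 was among the 5 named genes that rose and were called in 1 or both lines. ANK3 encodes ankyrin-G, which links membrane proteins to the spectrin cytoskeleton and belongs to the family of proteins that bind the tail of CD44. It was at 2.08, 6.99 and 5.84 CPM in Hs578T WT and at 19.8, 21.5 and 21.5 in KO. The MDA-MB-231 WT libraries held 2.31, 3.21 and 3.00 CPM and the KO libraries 11.3, 7.15 and 9.28. ANK3 was thus higher in every KO library than in the WT libraries of its line, with a common change of 1.91 ± 0.23 (edgeR adjusted p = 0.00017). Its neighbours on chromosome 10 had a median of 0.02 in Hs578T and 0.46 in MDA-MB-231.

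SYT1, a calcium sensor of vesicle fusion, rose by 1.78 ± 0.22, and TTLL7, a ligase that adds glutamate chains to tubulin, rose by 1.54 ± 0.24. ARMCX2, an X-linked armadillo repeat protein, rose by 0.98 ± 0.12, and OSBPL6, of the oxysterol-binding protein family, by 1.10 ± 0.16. ARMCX2 had the most even response of the 4, from 18.5 ± 3.2 to 37.4 ± 1.4 CPM in Hs578T cells and from 8.58 ± 1.79 to 16.5 ± 2.0 in MDA-MB-231 (SD, n = 3). TTLL7 rose from 7.92 ± 2.36 to 35.2 ± 4.4 CPM in Hs578T cells and from 8.55 ± 2.56 to 15.9 ± 2.4 in MDA-MB-231. GPC4, SPOCK1, CDH11, SYK, ANK3, SYT1, ARMCX2, TTLL7 and OSBPL6 stayed called in each of the 12 fits without 1 library.

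GPC4, SPOCK1 and TGFBR3 belong to a list of 14 tested heparan sulfate proteoglycan genes. The common test called 4 of these lower and none higher, or 28.6% against 3.08% of all genes, a count that includes the 3 genes already described, and the median over the 14 was -0.12 against -0.01 over all genes tested. The fourth was SDC1, syndecan-1, which lies in the set-apart end of chromosome 2 and fell by 0.37 ± 0.07 on the log2 scale, near the -0.38 median of its neighbours. AGRN, HSPG2 and GPC1 had common changes of 0.02, 0.11 and 0.01, none of them called. SDC4 (-0.34, adjusted p = 0.012) and NRP1 (0.44, adjusted p = 0.014) stood just beyond the edgeR threshold in opposite directions.

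The enzymes that build and degrade the chains were grouped after their values had been seen. Of 23 tested enzymes of heparan sulfate chains, 4 were called lower and 1, GLCE, higher, or 21.7% against 3.08% of all genes. HS6ST1, a 6-O-sulfotransferase, was the member called lower that was measured in both lines. It fell from 23.5 to 14.99 CPM in Hs578T cells and from 25.1 to 12.3 in MDA-MB-231, a common change of -0.84 ± 0.12. XYLT1 and SULF2 were measured only in Hs578T and HS6ST2 only in MDA-MB-231. Of 14 enzymes of chondroitin and dermatan sulfate, CHST11 and DSE, the dermatan sulfate epimerase, were higher and none was lower (14.3% against 3.08%). DSE was at 33.0, 38.7 and 45.5 CPM in Hs578T WT and at 62.4, 63.4 and 63.9 in KO. In MDA-MB-231 it was at 13.03, 16.04 and 18.2 CPM in WT and 28.1, 22.6 and 25.3 in KO, a common change of 0.69 ± 0.10 (edgeR adjusted p = 0.00068).

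Of 15 lysosomal enzymes that degrade the chains, IDS and SGSH, a sulfamidase of heparan sulfate, were lower, and HEXA, a subunit of beta-hexosaminidase, was higher (20% against 3.08%). SGSH fell by 0.73 ± 0.15, from 14.2 to 6.27 CPM in Hs578T cells and from 27.7 to 21.6 in MDA-MB-231. HEXA rose by 0.41 ± 0.07, and its neighbours on chromosome 15 had a median of 0.16. The medians of the 3 groups of enzymes were -0.05, 0.05 and -0.10, against -0.01 over all genes tested.

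**Figure D3:**
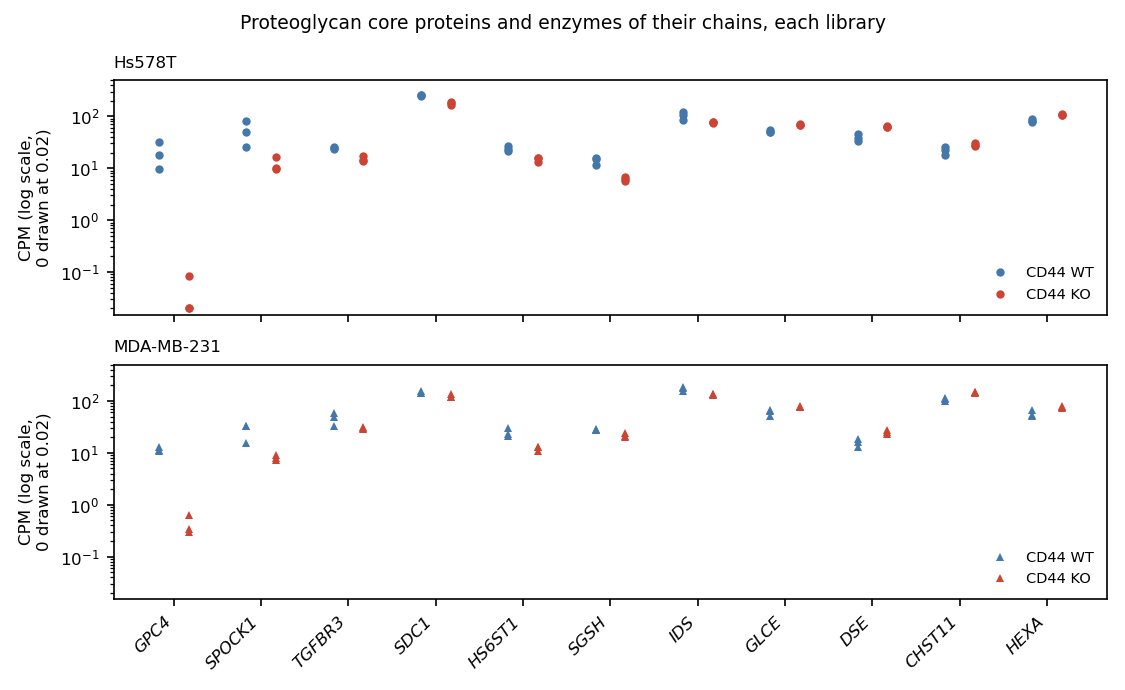
CPM of each library on a log axis for proteoglycan core proteins (GPC4, SPOCK1, TGFBR3, SDC1), heparan and chondroitin or dermatan sulfate enzymes (HS6ST1, GLCE, DSE, CHST11) and lysosomal enzymes (SGSH, IDS, HEXA), with CD44 WT in blue and KO in red. GPC4 drops from 9.48 CPM or more to below 1 CPM in every KO library, whereas SDC1, IDS and HEXA shift by a common log2 fold change of at most 0.41 in size.

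The 250 bases upstream of the RefSeq start are shown for 2 of the lower proteoglycans and for both chain enzymes that only the common test called, since the values of these 4 genes were described above and each has 1 start in the RefSeq table (GRCh38.p14). SPOCK1 had no entry. Capitals mark the GC box GGGCGG on either strand, a motif bound by SP family factors. GPC4 is shown from chrX:133415490-133415739 (minus strand), TGFBR3 from chr1:91886152-91886401 (minus strand), GLCE from chr15:69160385-69160634 (plus strand) and CHST11 from chr12:104456698-104456947 (plus strand), each read 5′ to 3′ in the direction of transcription.
GPC4: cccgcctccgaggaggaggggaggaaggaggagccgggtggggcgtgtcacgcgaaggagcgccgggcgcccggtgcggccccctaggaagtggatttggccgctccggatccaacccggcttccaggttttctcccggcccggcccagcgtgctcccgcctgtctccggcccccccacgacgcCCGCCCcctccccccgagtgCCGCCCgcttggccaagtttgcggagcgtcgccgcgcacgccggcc
TGFBR3: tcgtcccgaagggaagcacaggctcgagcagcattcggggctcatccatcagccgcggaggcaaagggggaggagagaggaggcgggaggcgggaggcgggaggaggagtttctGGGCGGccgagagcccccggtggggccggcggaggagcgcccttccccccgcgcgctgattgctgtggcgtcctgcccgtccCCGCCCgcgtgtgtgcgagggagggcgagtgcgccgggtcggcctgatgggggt
GLCE: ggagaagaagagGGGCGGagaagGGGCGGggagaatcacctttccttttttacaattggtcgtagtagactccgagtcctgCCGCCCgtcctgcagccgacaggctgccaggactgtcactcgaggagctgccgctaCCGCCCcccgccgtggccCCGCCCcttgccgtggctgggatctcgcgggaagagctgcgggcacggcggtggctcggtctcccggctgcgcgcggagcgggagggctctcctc
CHST11: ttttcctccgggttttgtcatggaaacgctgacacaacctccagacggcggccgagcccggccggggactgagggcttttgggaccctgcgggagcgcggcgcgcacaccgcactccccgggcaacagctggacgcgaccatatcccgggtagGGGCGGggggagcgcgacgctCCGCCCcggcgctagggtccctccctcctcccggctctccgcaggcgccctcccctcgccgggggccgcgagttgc

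All 4 promoters were rich in G and C, at 76.0%, 73.6%, 68.8% and 73.2% against a median of 58.0% over 27305 promoters. They held 2, 2, 5 and 2 GC boxes, a motif found in 42.3% of all promoters of this length and in 68.9% of those of genes measured in both lines. The share was 45 of 73 promoters (61.6%) for lower measured genes outside the end of chromosome 2 and 47 of 74 (63.5%) for higher ones. None of the 4 held the E-box CAGGTG, to which SNAI2 binds, or the AP-1 sequence TGANTCA on either strand. The E-box was present in 17.5% of all promoters, in 14 of 73 promoters (19.2%) of measured genes that were lower outside the end of chromosome 2 and in 11 of 74 (14.9%) of those that were higher. These matches describe the letters of this window only.

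Secreted ligands and their antagonists were read in the same way. Of 44 tested genes of the TGF-beta, activin and BMP family, 5 were called lower and 2 higher, or 15.9% against 3.08%, with a median of -0.05. The 5 lower ones include ID2, which lies in the end of chromosome 2, and TGFBR3. BMP4 fell from 25.6 to 11.1 CPM in Hs578T cells and from 128 to 68.4 in MDA-MB-231, a common change of -1.05 ± 0.13. INHBB, the beta-B subunit of activins and inhibins, fell from 38.4 to 5.97 CPM and from 44.6 to 18.3 CPM, a change of -1.93 ± 0.27. FST, follistatin, which binds activins, rose by 1.02 ± 0.14, mostly on the 127 to 271 CPM of MDA-MB-231, since it was under 3 CPM in every Hs578T library. INHBE was higher and CHRDL1, a BMP antagonist, lower, but each was near 1 CPM or less in 1 line.

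Of 33 tested WNT pathway genes, TCF7L1, WNT5A and ROR2 were called lower and none higher (9.09% against 3.08%). WNT5A, a ligand that signals through ROR2, fell from 18.6 to 8.96 CPM in Hs578T cells and from 2.36 to 0.233 in MDA-MB-231. ROR2 itself was at 2.40 and 0.373 CPM in Hs578T WT and KO and under 0.5 CPM in MDA-MB-231. TCF7L1, a repressor that acts with beta-catenin, fell by 1.05 ± 0.21.

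Of 11 tested chemokines, CCL2 and CCL26 were called lower and none higher, or 18.2% against 3.08% of all genes. The list median was -0.77 for the common effect, -0.51 in Hs578T and -0.11 in MDA-MB-231. CCL2, which attracts monocytes, was at 6.17, 5.92 and 4.06 CPM in Hs578T WT and at 1.69, 2.34 and 1.45 in KO. In MDA-MB-231 it was at 70.9, 36.0 and 47.6 CPM in WT and at 4.15, 2.86 and 3.95 in KO. Within each line the KO libraries lay below the WT libraries, with a common change of -2.92 ± 0.37 (edgeR adjusted p = 0.00027), and the decrease was larger in MDA-MB-231 (adjusted p of the difference 0.0027). CCL26, an eosinophil attractant, fell by 1.67 ± 0.30 from about 2 CPM in both lines. Of the cytokine list, 1 of 22 tested genes was called (4.55% against 3.08%), TNFSF9, the ligand of 4-1BB, which fell by 0.79 ± 0.14. By edgeR 0 of 24 NF-kappaB pathway genes were called, against 3.08% of all genes, with 2 at an unadjusted p under 0.05 and 0 by DESeq2.

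The mesenchymal list had 3 of 23 tested genes called, all higher, or 13% against 3.08% of all genes. The list median was 0.17 for the common effect, 0.21 in Hs578T and 0.00 in MDA-MB-231. Besides SNAI2 and the Hs578T gene TWIST1, VIM, the intermediate filament vimentin, rose from 3862 ± 131 to 5041 ± 119 CPM in Hs578T cells and from 4896 ± 177 to 6609 ± 566 in MDA-MB-231 (SD, n = 3). The common change was 0.41 ± 0.06. In MDA-MB-231 its 50 neighbours on chromosome 10 had a median of 0.47, about as much as VIM itself, and in Hs578T one of 0.06. ZEB1 (0.33, adjusted p = 0.10) and CDH2 (0.19, adjusted p = 0.38) did not pass, nor did FN1 (-0.17, adjusted p = 0.49) in the edgeR test.

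Integrins, matrix glycoproteins and collagens had calls in both directions. The shares called were 15.8%, 9.68% and 14.8%, against 3.08% of all genes. Among 19 integrins, ITGB8 rose by 1.26 ± 0.24 in low counts, while ITGA4 (higher) and ITGA8 (lower) were measured only in Hs578T. Among 31 matrix glycoproteins, MATN2 (-1.27 ± 0.14) fell and MFAP2, a microfibril protein, rose (0.75 ± 0.10) in both lines. LAMA2 rose from 6.55 to 91.5 CPM in Hs578T but was at 1.29 and 1.42 CPM in MDA-MB-231. Of 27 collagens, COL13A1 alone of the 4 called was measured in both lines, rising by 0.54 ± 0.09. CEMIP, a hyaluronan-degrading protein, was the 1 gene called of the 16 of the hyaluronan list (6.25% against 3.08%). It fell by 1.07 ± 0.20 from 15.4 to 6.26 CPM in Hs578T cells and from 4.53 to 2.76 in MDA-MB-231. Of 18 plasminogen activation genes, 4 serpins and Kunitz inhibitors were called higher and 1 lower, or 27.8% against 3.08% of all genes, and 2 of the 5 were measured in both lines. SERPINB8 rose by 0.58 ± 0.09 and TFPI2 by 1.42 ± 0.23, while SERPINB2 was near absent from Hs578T. The neighbours of SERPINB8 had a median of 0.10 in Hs578T and 0.44 in MDA-MB-231.

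CCN1, a matricellular YAP target, fell by 0.81 ± 0.15 and was the 1 gene called of 30 in the Hippo list (3.33% against 3.08%). Both this share and that of the p53 targets are near that of all genes. CDKN1A, the p21 inhibitor of cyclin-dependent kinases, rose by 0.63 ± 0.10 and was the 1 called of 25 p53 targets (4% against 3.08%). It went from 69.3 to 101.3 CPM in Hs578T cells and from 43.2 to 70.7 in MDA-MB-231. Lists without a call by edgeR included 28 AP-1 and immediate early genes (9 at an unadjusted p under 0.05, 3 by DESeq2), 36 mitosis genes (10 and 0), 19 stem cell markers (5 and 0) and 70 oxidative phosphorylation genes (11 and 3). The 31 cholesterol and fatty acid (10 and 1), 28 glycolysis (5 and 1), 11 S100 (4 and 0) and 8 antigen presentation genes (3 and 1) had none either. Over all genes tested the share called was 3.08%. Among 27 cadherins and catenins 3 were called lower (11.1% against 3.08%), of which CDH11 alone was measured in both lines. The 33 metalloproteinases and inhibitors had 2 calls in each direction (12.1% against 3.08%), of which MMP15 fell by 0.78 on the log2 scale. Lists of 1 call whose member lies in the end of chromosome 2 were those of focal adhesion, DNA replication, the unfolded protein response, the spliceosome and ribosomal proteins. Their shares ran from 1.33% to 3.7%, against 3.08% of all genes.

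**Figure D4:**
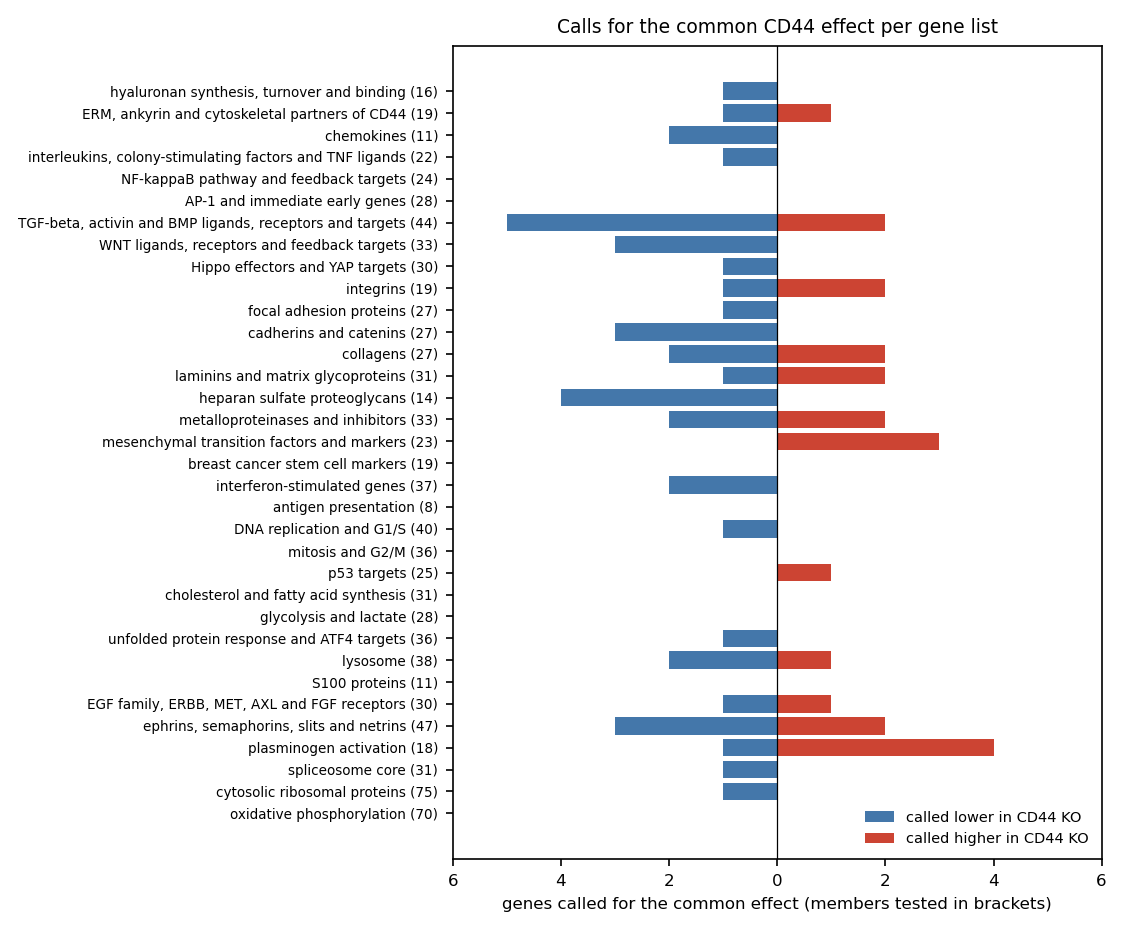
Number of genes called lower (blue, to the left) and higher (red, to the right) for the common effect in each of 34 gene lists, with the number of tested members in brackets. The TGF-beta family (5 lower, 2 higher), the ephrins, semaphorins, slits and netrins (3 lower, 2 higher) and plasminogen activation (1 lower, 4 higher) have the most calls, the 14 heparan sulfate proteoglycans have 4, all lower, and 9 lists have none. Over all genes tested 3.08% were called.

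The end of chromosome 2 below position 26600000 held 100 tested genes. Of these, 29 were called, all lower (29.0% against 1.67% of all genes), and 92 had a common log2 fold change below 0. By edgeR 0 of the 8 higher ones were called, 2 having an unadjusted p under 0.05 and 0 being called by DESeq2. The common median was -0.39, with -0.38 for Hs578T alone and -0.41 for MDA-MB-231 alone. The 29 calls comprised 10 made in both lines, 7 in Hs578T only, 9 in MDA-MB-231 only and 3 in neither line (TRAPPC12, RHOB and RDH14).

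RNF144A encodes a ubiquitin ligase. It was at 13.4, 13.98 and 11.3 CPM in Hs578T WT and 3.61, 3.88 and 2.64 in KO. In MDA-MB-231 it was at 15.1, 18.7 and 17.8 CPM in WT and 3.30, 3.55 and 2.96 in KO. Its common change was -2.15 ± 0.14 (edgeR adjusted p = 6.7e-07), and its neighbours had a median of -0.46. Nearby, ID2, an inhibitor of helix-loop-helix factors, fell by 1.25 on the log2 scale (-1.04 in Hs578T, -2.95 in MDA-MB-231) and MYT1L by 1.61 (-1.37 and -2.15), both with a mean under 1 CPM in a line. ADI1, an enzyme of methionine salvage, fell by 0.81 ± 0.08, DDX1, an RNA helicase, by 0.55 ± 0.06, RRM2, a subunit of ribonucleotide reductase, by 0.60 ± 0.09 and LAPTM4A, a lysosomal membrane protein, by 0.43 ± 0.06. All 5 stayed called in each fit without 1 library.

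The lines part somewhat before the position that bounds the region, and Hs578T stays lower beyond it. The next 100 tested genes of chromosome 2 had a median of -0.38 in Hs578T and -0.02 in MDA-MB-231, with 6 called lower and none higher in the common test. Just inside the limit stood RAB10 (-0.49 in Hs578T, -0.06 in MDA-MB-231) and SELENOI (-0.37 and 0.11), and just outside SLC35F6 (-0.38 and -0.41), CENPA (-0.44 and -0.02) and TMEM214 (-0.38 and -0.27). The remainder of chromosome 2 had 26 genes called lower and 12 higher of 1005. On chromosome 11 telomeric of CD44, 7 of 225 tested genes were called, all lower, with medians of 0.08 in Hs578T and -0.57 in MDA-MB-231. This share is near that over all genes tested, where 3.08% were called, 1.67% lower and 1.41% higher. Without all of chromosome 2 and this part of chromosome 11, 414 of 14506 genes were called, 203 lower and 211 higher, and 163 of them were measured in both lines, 72 lower and 91 higher.

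**Figure D5:**
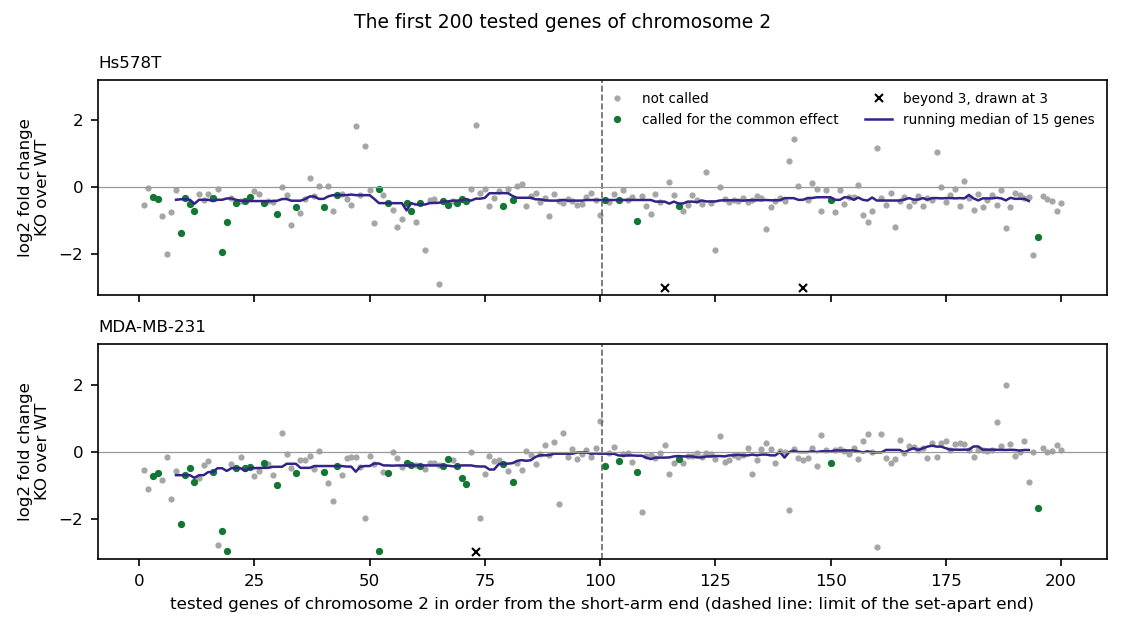
Fitted log2 fold change (CD44 KO over WT) of the first 200 tested genes of chromosome 2, in order from the end of the short arm, in Hs578T (top) and MDA-MB-231 (bottom); green points were called for the common effect, the line is the running median of 15 genes and the dashed line marks the limit after gene 100. The running median stays below 0 along the whole Hs578T panel, whereas in MDA-MB-231 it is near 0 after the limit.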

How the data were processed

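The authors made 12 stranded mRNA libraries from sorted populations of both lines. Per their processing notes and methods, HISAT2 2.1.0 was the aligner, GRCh38 the genome, and featureCounts 1.6.2 with GENCODE annotation the counter. The deposited table holds raw counts of fragments for 58381 genes, both ends mapped, reverse-stranded, without normalization; 57799 genes were given a symbol. The group of every library was taken from its label. One MDA-MB-231 CD44 WT library carries no clear replicate number.

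A gene was tested (15836 were) if at least 2 libraries exceeded 1 CPM and its exons spanned at least 300 nt, with edgeR 4.0.16 in R 4.3.3: TMM factors, legacy quasi-likelihood fit, design cell line plus CD44 status. Benjamini-Hochberg adjusted p of at most 0.01 was a call. Fits of 4 group means gave each line's effect and their difference. Adjusted p-values are over all genes tested. Printed CPM use TMM factors; SE is the fold change over the square root of F. limma 3.58.1 and DESeq2 1.42.0 served alternatives. Scripts were tested on simulated data. Alternatives changed the scaling, the filters, the estimate of spread, the threshold, the blocks, the unit of replication and the tool, and left out each library in turn. Library totals limit precision for weak genes.

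Named genes were outside the end of chromosome 2, called, at least 5 CPM in both lines, alike in sign and without overlap of KO and WT libraries in both lines. Among those called in neither line up to 8 per direction with the smallest p were named, among the others 5 per direction with the largest smaller change, and 5 inside the end of chromosome 2, plus up to 6 called members per list. Other names (TMEM214 and other limit genes, ID2, MYT1L, list members not called, HS6ST1, DSE, NR2F2-AS1, TRAPPC12, RHOB and RDH14) were chosen after their values were seen, as were the 3 lists of glycosaminoglycan enzymes. Members and lists were chosen with earlier results of these data known. Promoters came from RefSeq (GRCh38.p14). A gene that met the rule for naming is not reported here.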

Additional observations from a re-analysis of the deposited data

Results flagged for a closer look

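The log2 fold change of CD44 itself differed between the lines by -0.81, Hs578T minus MDA-MB-231, with WT means of 507 and 362 CPM and KO means of 27.3 and 34.2 CPM in Hs578T and MDA-MB-231 (edgeR, adjusted p of the difference 0.0020). For SYK the difference was 2.54, with the larger decrease in MDA-MB-231 (adjusted p of the difference 6.2e-05). In all, 16 genes called for the common effect with the same sign in both lines also differed between the lines in the edgeR interaction test, so that for these the common value is a single value for unequal changes. They include CCL2, MAGEA3 and LOXL3, chosen here after their values were seen. No group had more than 3 libraries, so single libraries were not tested as outliers.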

How the results depend on the processing

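RLE factors, library size alone, at least 10 counts in every library of a group, no length filter and robust estimation gave 475 to 501 common calls and 25 to 29 concordant genes called in neither line, and leaving out the regions of chromosomes 2 and 11 gave 447 and 25. The common count was 719 in the newer quasi-likelihood fit, 1309 without a filter on low counts, 1419 at an adjusted p of 0.05, 807 for the average of both lines' contrasts, 921 by DESeq2, 155 when more than 1 CPM was required in at least 2 libraries of each line (chosen after seeing the data) and 0 with 1 difference per line as the unit. The class called in neither line had 54 genes in that newer fit, 141 at 0.05, 90 for the average contrast, 146 by DESeq2, 11 under the filter in each line, 43 with each line fitted alone, 11 with the label-number block and 0 with lines as units. In the end of chromosome 2 there were 48 calls at 0.05 and 0 with lines as units, where CD44 was at -3.81 with an adjusted p of 0.98. At 0.05 the counts were 2253 in Hs578T, 1518 in MDA-MB-231 and 1670 for the difference. DESeq2 called 1138 in MDA-MB-231 and 1179 for the difference, and MDA-MB-231 fitted alone gave 315. The causes of these moves were not tested, apart from the looser threshold and the smaller number of units.

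Same-numbered libraries did not deviate together, with correlations of deviations from -0.12 to 0.16 over 15 pairs and 1 above 0.1, so the numbers were not taken to pair them. Libraries also carry label numbers from 1 to 12 in 3 consecutive sets of 4, 1 library of each group in each set. Within these sets the correlations were -0.00 to 0.16 over 18 pairs, with a median of 0.06 and 6 above 0.1, against a median of -0.04 for pairs that share neither number, and the label-number block on these sets gave 375 common calls beside the 11 above. With the replicate block, on the 11 numbered libraries, the common count was 220, the end of chromosome 2 had 9 calls, 3 genes were called in neither line and MDA-MB-231 had 436 calls. The same 11 libraries without the block gave 463, 23, 31 and 659.

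Leaving out 1 library gave 290 to 510 common calls, 605 to 1685 in Hs578T, 355 to 763 in MDA-MB-231, 396 to 804 for the difference, 18 to 33 genes in neither line and 20 to 37 in the end of chromosome 2. For the 30 named genes besides CD44, 668 values under other settings kept direction and call, 166 kept the direction without the call and 0 reversed. Depth limits what can be said of genes under 1 CPM in a line.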
